A study of Mus musculus with 4 samples.

Results

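The genes described here encode synaptic adhesion molecules and cadherins, together with the catenins that tie cadherins to the cell interior and the Eph receptors and ephrins. They were chosen by gene symbol alone, through patterns for 17 families from the neurexins to the ephrins, and no measured value entered the choice. The patterns matched 135 of 9297 polyA sites in the table, 79 of 7202 gene names and 374 of 34672 tags. Among protein-coding names of the GENCODE vM21 mouse annotation the same patterns match 177, so that 98 of these genes had no site under their own name.

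The data came from 4 replicate cTag-PAPERCLIP libraries of microdissected CA1 neuropil of the mouse hippocampus, strain C57BL/6, genotype Camk2a-Cre x Pabpc1- cTag. CA1 is a hippocampal field whose pyramidal neurons send their dendrites into the neuropil, where axons and glia also lie. The poly(A)-binding protein Pabpc1 carried a GFP tag where Cre, driven by the Camk2a promoter, had been active, so that the RNA recovered with it came by design from pyramidal neurons. Each library was made from tissue pooled over several mice, whose ages are not given in the labels. There was 1 group and no control library, so the questions that could be asked were which 3′ ends of adhesion mRNAs were recovered, how often, where they lay, and how far the replicates differed.

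Neurexins sit on the presynaptic membrane and bind neuroligins, LRRTMs and other partners across the cleft, and latrophilins, SynCAMs, SALMs and Slitrks bridge it through other pairs. Cadherins and protocadherins bind their own kind on the opposite membrane, and catenins couple cadherins to actin. An mRNA in a dendrite can be translated near the synapse, and its 3′UTR carries the sequences that direct transport and local translation. The end of that 3′UTR is set by a polyA site, which usually has the hexamer AATAAA or ATTAAA a short way upstream of the cleaved end.

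The sequences at the leading adhesion sites for which sequence is shown come first, because they show which of these sites had a polyA signal. Each window of 30 bases is the GRCm38 (mm10) reference on the strand of the gene, 5′ to 3′, with the signal in capitals where AATAAA or ATTAAA lay within 50 bases on either side of the site. Clustered protocadherins, Pcdh1 and Cdh2 are described without sequence.
Adgrb1, chr15:74589432-74589461, plus strand: tttcttttcttcAATAAAaagaattaaaaa
Nrxn3 at the gene end, chr12:90334903-90334932, plus strand: gatatgcttagcAATAAAatgttcttccca
Adgrb2, chr4:130022602-130022631, plus strand: aactttgttgggAATAAActtcactctgtg
Cntn1 distal, chr15:92341915-92341944, plus strand: aaattataaagaAATAAAtgtcttactgtt
Cntn1 proximal, chr15:92340087-92340116, plus strand: gttttccataaaATTAAAacaaaaaaaata
Adgrl1 distal, chr8:83941912-83941941, plus strand: aaaaagtcaaacAATAAAgaaattaagatt
Ncam1, chr9:49515143-49515172, minus strand: cacctttgcattATTAAAggatataacagt
The next windows are centred on sites with neither hexamer in that span, and they include the site of Cntnap2, second among adhesion sites by tags.
Cntnap2, chr6:47302640-47302669, plus strand: cagcctgggcaacagtgaaactccatctta
Cntnap1, chr11:101190537-101190566, plus strand: tttatatataaaagaactcagtgggctgtc
Nlgn2, chr11:69823129-69823158, minus strand: tgaagagaatattgtaaatataaaagttta
Adgrl1 proximal, chr8:83939952-83939981, plus strand: tgtaaatatttcaacaaaatggaaaaggaa

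Replicates 1 to 4 held 16017, 6609, 5947 and 6099 tags, of which 130, 50, 86 and 108 were at adhesion sites. Per 10000 tags of the library these came to 81.2, 75.7, 145 and 177, with 95% Wilson intervals of 68.4 to 96.3, 57.4 to 99.6, 117 to 178 and 147 to 213, and a mean of 120 ± 49.5 (SD, n = 4). Replicates 3 and 4 were thus higher than replicates 1 and 2, with intervals that did not overlap. In replicate 1, 32.9% of all tags lay at sites that match the noncoding RNA Bc1, and no adhesion site was of this kind. With these sites left out of the totals the adhesion tags came to 121, 85.7, 148 and 181 per 10000 (134 ± 40.4, SD, n = 4), so that replicate 1 then lay between replicates 2 and 3. The intervals cover counting error only, and they treat tags as independent molecules, which was not tested.

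Marker genes of other cell types also varied between the libraries. Haemoglobin and other blood genes (4 of 7 present) came to 2.50, 56.0, 131 and 14.8 tags per 10000, and oligodendrocyte genes (8 of 10 present) came to 29.3, 56.0, 18.5 and 13.1. Interneuron genes (5 of 10 present) came to 6.87, 9.08, 21.9 and 29.5, with Npy at 22 of their 48 tags. Npy had 4, 0, 6 and 12 tags in replicates 1 to 4, while Cck had 3, 4, 5 and 3 and Gad1 had 3, 1, 2 and 2. Astrocyte genes (10 of 10 present) ranged from 11.5 to 36.2 per 10000, microglial genes (3 of 10) from 0 to 6.05 and endothelial genes (5 of 10) from 1.64 to 6.05. Pyramidal neuron genes (7 of 10) ranged from 13.6 to 28.7, led by Nrgn with 53 tags, while Camk2a had no site under its own name. The libraries were purified through the tagged protein, and the part of other cells in the adhesion tags was not tested. In pooled material of this kind, more cells of a type and more RNA per cell cannot be told apart.

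Most adhesion genes were seen at a few tags. The median was 2 tags per gene, as over all gene names, and 29 of 79 genes had 1 tag. Tags were found in 1 replicate for 37 genes, in 2 for 16, in 3 for 14 and in all 4 for 12. The share in all 4 replicates was 15.2% of the adhesion genes beside 7.76% of all names, and 9 adhesion genes (11.4%) had at least 10 tags beside 7.4% of all names. These 9 genes held 181 of the 374 tags (48.4%), and Pcdhgc5, Cntnap2 and Adgrb1 alone held 101 (27.0%).

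At the level of sites, 39 of 135 (28.9%) had tags in more than 1 replicate beside 34.2% of all sites, and 8 (5.93%) had tags in all 4 beside 4.9% of all sites. The 39 recurrent sites held 263 of the 374 adhesion tags (70.3%). Without replicate 1, the deepest library, 22 sites had tags in more than 1 replicate. A site with 1 tag says that an RNA was recovered, and its absence elsewhere was not detectable at this depth, since a count of 0 allows up to 1.87, 4.54, 5.04 and 4.92 tags per 10000 in replicates 1 to 4.

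**Figure D1:**
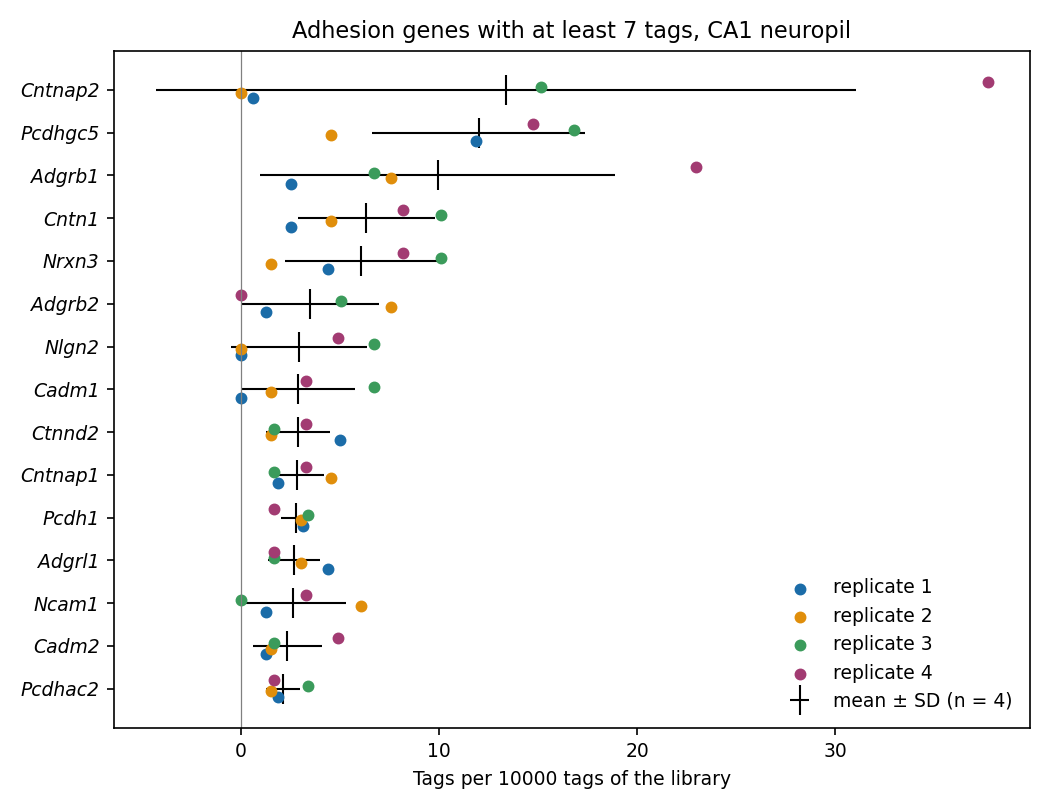
Tags per 10000 tags of the library (x axis, linear) for the 15 adhesion genes with at least 7 tags, with 1 coloured point per replicate and the mean ± SD (n = 4) in black. Cntnap2 and Adgrb1 had their highest point in replicate 4, at 37.7 and 22.95, while the points of Pcdh1 lay close together (2.79 ± 0.778).

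Neurexins, the presynaptic hubs of synaptic adhesion, had 25 tags under the names Nrxn3 and Nrxn2 (7.98 ± 4.60 per 10000, SD, n = 4). Nrxn3 had 7, 1, 6 and 5 tags in replicates 1 to 4, or 6.04 ± 3.84 per 10000, and was present in every library. Of these, 14 tags (6, 1, 2 and 5) lay at the site shown above, 22 bases before the annotated end of the gene (chromosome 12, 88722876 to 90334935, plus strand). Another 4 tags, all from replicate 3, lay in an intron 95665 bases before the end. Nrxn2 had 2, 1, 2 and 1 tags, 5 of them at 1 3′UTR site that lies 10984 bases before the end of the gene.

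Some sites inside adhesion genes carried other names in the table. These included 5 tags in the 3′UTR of Ctnnd1 named Selenoh, as 0, 1, 1 and 3, and 3 tags each for Adgrb3, Ctnnbip1 and Epha4. Conversely, 5 adhesion-named sites lay in other vM21 genes, among them a site named Slitrk5 in Tpm3-rs7.

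The neuroligins, postsynaptic partners of the neurexins, had 11 tags (4.53 ± 4.40 per 10000, SD, n = 4). Their mean differed from that of the neurexins by less than either SD. Nlgn2, the neuroligin of inhibitory synapses, had 0, 0, 4 and 3 tags, all at a site 22 bases before its end (chromosome 11, 69823122 to 69837784, minus strand). It was absent from replicates 1 and 2, where a count of 0 allows up to 1.87 and 4.54 tags per 10000, and came to 6.73 and 4.92 in replicates 3 and 4. Nlgn1, found at excitatory synapses, had 0, 1, 1 and 2 tags. Nlgn3 had no site under its own name.

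Of the leucine-rich repeat proteins that organise excitatory or inhibitory synapses, all 4 LRRTM genes had tags, 8 in all, of which the name Lrrtm4 had 0, 1, 1 and 1, with the tag of replicate 3 at 815 kb past the gene. The Slitrks had 16 tags from 4 of 6 genes, as 10, 0, 3 and 3, led by Slitrk1 with 4, 0, 1 and 1. Of the 6 Slitrk1 tags, 3 came from replicate 1 at a site 211722 bases past the annotated end of the gene, so that the lead of Slitrk1 rests on that site. The SALMs (Lrfn genes), which bind postsynaptic scaffolds, had 2 tags, 1 each for Lrfn4 and Lrfn5.

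Adhesion G protein-coupled receptors were found for all 7 genes of the Adgrb (BAI) and Adgrl (latrophilin) groups, with 59 tags as 16, 14, 11 and 18 (19.8 ± 8.05 per 10000, SD, n = 4). Adgrb1 (BAI1), a synaptic receptor that also takes part in the uptake of dying cells, had 4, 5, 4 and 14 tags, or 2.50, 7.57, 6.73 and 22.95 per 10000. All 27 tags lay at the window shown above, 23 bases before the end of the gene (chromosome 15, 74516195 to 74589465, plus strand). Replicate 4 was the highest and its interval of 13.7 to 38.5 per 10000 lay above that of replicate 1 (0.971 to 6.42) but overlapped those of replicates 2 (3.23 to 17.7) and 3 (2.62 to 17.3).

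Adgrb2 had 2, 5, 3 and 0 tags at 1 site and was thus missing from the library where Adgrb1 was highest. Adgrl1 (latrophilin 1), which binds teneurins and FLRT proteins, had 7, 2, 1 and 1 tags. The names Adgrl3 and Adgrl2 had 5 and 4 tags, of which 1 lay 2326 kb past Adgrl3 and 2 lay 1977 kb past Adgrl2 inside Gm10288, at a sequence with 4 other copies in the genome. Adgrb3 and the endothelial Adgrl4 had 1 tag each under their own names. Adgrl2 and Adgrl4 also occur in vessels or in other cells, and the part of those cells was not tested.

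Immunoglobulin-type molecules formed the next group. Cntn1, a contactin anchored to the membrane by lipid, had 4, 3, 6 and 5 tags in replicates 1 to 4 (6.33 ± 3.44 per 10000, SD, n = 4), and it was among the 12 genes present in every library. The SynCAMs (Cadm genes), which span the cleft in pairs, had 21 tags from all 4 genes, as 2, 4, 7 and 8. Cadm1 had 0, 1, 4 and 2 tags, Cadm2 had 2, 1, 1 and 3, and Cadm3 had 0, 1, 2 and 2.

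The site of Cadm1 that recurred lies 6614 bases before the end of the gene, and that of Cadm3 lies 1615 bases before its end, whereas Cadm2 recurred 20 bases before its end. The IgLONs, lipid-anchored proteins of neuronal membranes, had 13 tags, and Lsamp had 1 tag in each library. Nectin1 led the nectins with 2, 1, 0 and 0 tags.

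Ncam1, the neural cell adhesion molecule, had 2, 4, 0 and 2 tags. Of these, 5 tags (2, 3, 0 and 0) lay at the window shown above, which vM21 places in an intron 13014 bases before the end of the gene (chromosome 9, 49502136 to 49798925, minus strand). It was the only intron site among the adhesion genes with tags in more than 1 replicate. RefSeq has an exon of a curated Ncam1 transcript at this position, so the class depends on the annotation. Of all 17 intron sites 5 lay in a RefSeq exon of the named gene.

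The contactin-associated proteins organise axonal domains and bind contactins, and they showed the widest spread between libraries, with 6, 3, 11 and 29 tags (18.6 ± 20.5 per 10000, SD, n = 4). Cntnap2 (CASPR2), a neurexin-like protein of axons and synapses, had 1, 0, 9 and 23 tags, or 0.624, 0, 15.1 and 37.7 per 10000. Replicates 3 and 4 held 32 of its 33 tags between them. All tags lay at position 47302654 of chromosome 6, plus strand, 1559 bases before the vM21 end of the gene (45059357 to 47304213) and outside the RefSeq gene.

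The window printed above for Cntnap2 has no AATAAA or ATTAAA within 50 bases on either side, and 86% of the 100 bases upstream are masked as repeats in the reference, beside a median of 22% over the adhesion sites. No other place in the genome matched at least 80 bases around the site at 90% identity or more. Shorter or less similar matches were outside this search, so it cannot tell whether tags here were placed uniquely. The part of the repeat in the count was not tested. Cntnap1 (CASPR), which takes part in the junction of axon and myelin beside the node of Ranvier, had 3, 3, 1 and 2 tags at 1 3′UTR site 173 bases before its end. Without Cntnap2 the adhesion tags came to 80.5, 75.7, 129 and 139 per 10000, with replicates 3 and 4 the higher on these totals. The totals include the Bc1-like sites, which held 32.9% of all tags in replicate 1 and lower its value.

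Protocadherins had the most tags of any family, with 86 from 17 of 68 genes, as 38, 9, 21 and 18 (25.5 ± 9.25 per 10000, SD, n = 4). Adhesion G protein-coupled receptors were higher in replicate 2 (21.2 beside 13.6 per 10000), and contactin-associated proteins in replicate 4 (47.5 beside 29.5). The name Pcdhgc5 had 19, 3, 10 and 9 tags, or 11.9, 4.54, 16.8 and 14.8 per 10000 (11.99 ± 5.37, SD, n = 4), more tags than any other adhesion gene. Its single site on chromosome 18 (position 37841845, plus strand) lies 28 bases before the end of the gene. That stretch is the 3′UTR of 21 of 21 vM21 genes of the gamma cluster, whose members share their last exons and differ in the exon that encodes the outer part of the protein. The tags therefore count the gamma cluster as a whole.

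The name Pcdhac2 likewise stood for the alpha cluster. Its site at position 37187637 had 3, 1, 2 and 1 tags and lies in the 3′UTR of 13 of 13 vM21 genes matched there. The beta protocadherins do not share a last exon, and they were seen as 5 genes with 2 or fewer tags each. Of the protocadherins outside the clusters Pcdh1 had 5, 2, 2 and 1 tags (2.79 ± 0.778 per 10000, SD, n = 4), Pcdh10 had 3, 0, 0 and 2 with 1 of these 13.4 kb past the gene, and Pcdh20 had 2, 2, 1 and 0. For Pcdh20, 4 of these 5 tags lay 109773 bases past the end of the gene, where RefSeq predicts the model Gm48929, so the name of that site rests on distance.

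The classical and related cadherins were sparse beside the protocadherins, with 18 tags from 8 of 23 genes, as 10, 1, 7 and 0. Cdh2 (N-cadherin), the main neuronal cadherin of synapses, had 3, 0, 3 and 0 tags, of which 1 in replicate 1 lay 14.3 kb past the gene. Cdh5 (VE-cadherin), which marks endothelium, had 2, 0, 1 and 0. No gene of this family had tags in replicate 4, where a count of 0 allows up to 4.92 tags per 10000, beside 11.8 in replicate 3 and 6.24 in replicate 1.

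Catenins had 14 tags from 3 of 9 genes, as 9, 2, 1 and 2, with the tag named Ctnnd1 inside Tmx2. Ctnnd2 (delta-catenin), a neuronal catenin of dendrites and spines, had 8, 1, 1 and 2 of these (2.87 ± 1.63 per 10000, SD, n = 4). The Eph receptors had 7 tags, led by Epha7 with 2, 1, 1 and 0, and their ephrin ligands had 10, of which the name Efna5 had 2, 0, 2 and 1. Of the 5 Efna5 tags 3 lay 1472 kb or more past the gene, and within 10 kb of their genes Efna3, with 3, 0, 0 and 0, had more tags than Efna5 with 2.

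**Figure D2:**
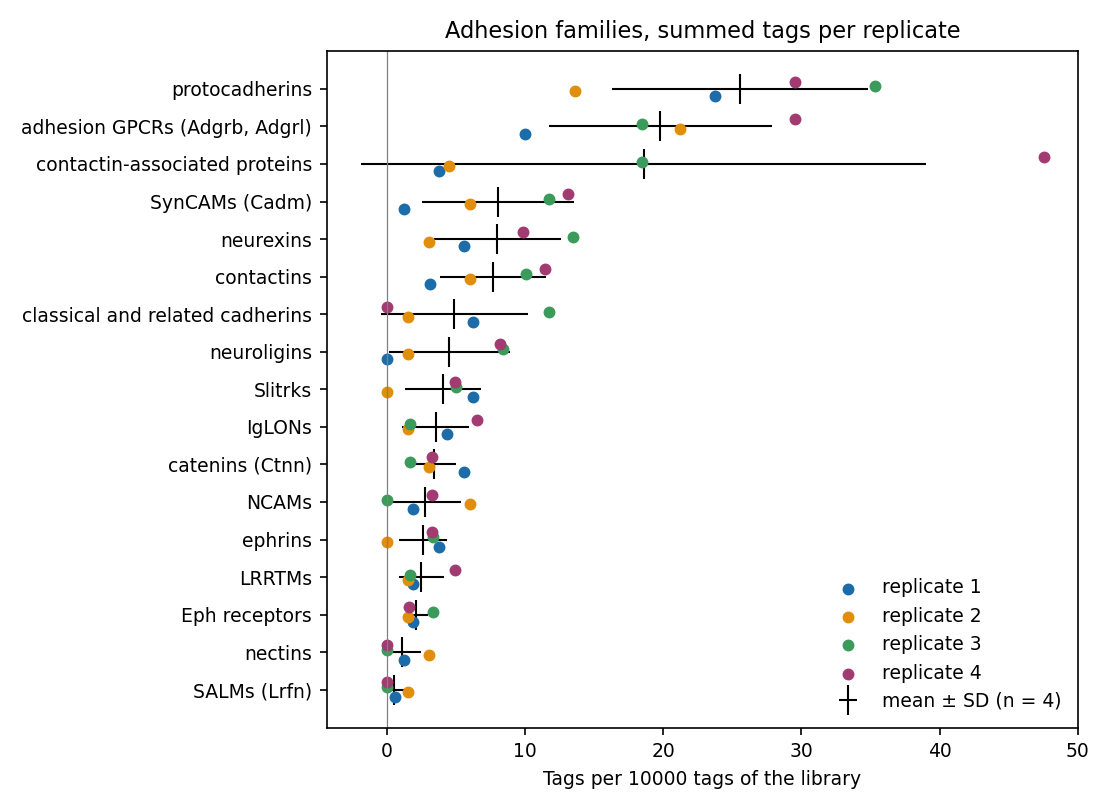
Summed tags per 10000 tags of the library (x axis, linear) for the 17 adhesion families, with 1 coloured point per replicate and the mean ± SD (n = 4) in black. Protocadherins lay highest on average at 25.5 ± 9.25, and the contactin-associated proteins spread from 3.75 to 47.5.

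Ordered by mean level, Cntnap2 (13.4 ± 17.7), Pcdhgc5 (11.99 ± 5.37), Adgrb1 (9.94 ± 8.96), Cntn1 (6.33 ± 3.44) and Nrxn3 (6.04 ± 3.84 tags per 10000, SD, n = 4) came first. Each neighbour in this order differed by less than the larger of the SDs over replicates of the pair, so the order is not resolved at this depth. A tag marks an end of an RNA and not its length, and levels were therefore not divided by gene length. Without replicate 4 the mean of Cntnap2 was 5.25 and that of Adgrb1 was 5.60 tags per 10000, and Cntnap2 then came last of these genes, below Nrxn3 at 5.32. Across all 7202 names and with all libraries these genes ranked 67, 77, 98, 196 and 214 by mean level.

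Whether a gene's share of the library differed between replicates beyond counting was tested with an exact multinomial test for every gene name with at least 20 tags. Over all names, 147 of 211 were called at an adjusted p under 0.05, or 69.7%. Of the adhesion genes 3 could be tested and 2 were called. Cntnap2 had an adjusted p of 9.35e-14 in the exact test with Benjamini-Hochberg adjustment, and Adgrb1 had 0.000227 in the same exact test. Pcdhgc5 had an adjusted p of 0.193 in the exact test. Without replicate 4 neither Cntnap2 nor Adgrb1 reached 20 tags, and 0 of 1 tested adhesion genes was called. These p-values measure counting error between 4 libraries only.

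At a minimum of 10 tags 2 of 9 adhesion genes were called, beside 40.3% of 533 names, and both were Cntnap2 and Adgrb1. Adgrb2 came next with an adjusted p of 0.0517 in the exact test, and the remaining genes lay between 0.145 for Cntn1 and 0.982 for Pcdh1 in the exact test.

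The positions of the adhesion sites were compared with those of all 9294 sites on assembled chromosomes. Of the 135 adhesion sites 92 lay in a 3′UTR (68.1% beside 76.5% of all sites), 21 between genes (15.6% beside 15.3%), 17 in introns (12.6% beside 5.30%) and 5 in noncoding exons. No adhesion site lay in a coding exon. By tags, 81.5%, 80%, 80.2% and 92.6% of adhesion tags in replicates 1 to 4 lay in a 3′UTR (83.6% ± 6.04, SD, n = 4). For all tags these shares were 60.9%, 81.0%, 73.2% and 80.1% (73.8% ± 9.29, SD, n = 4). Without the Bc1-like sites the shares of all tags were 90.4%, 91.4%, 75.1% and 81.7% (84.6% ± 7.67), and the adhesion genes then differed from all tags on average by less than the spread between replicates.

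The intron sites were mostly seen in 1 replicate. Among the 39 recurrent adhesion sites 35 lay in a 3′UTR (89.7% beside 88.6% of all recurrent sites) and 1 in an intron. The adhesion genes are long, with a median span of 135921 bases beside 25314 over all names with a vM21 gene, and their longest 3′UTR had a median of 2381 bases beside 1367. The median GC content over 100 bases on either side of the site was 32.8% beside 37.3%. Whether gene length or base composition has a part in the intron share was not tested.

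**Figure D3:**
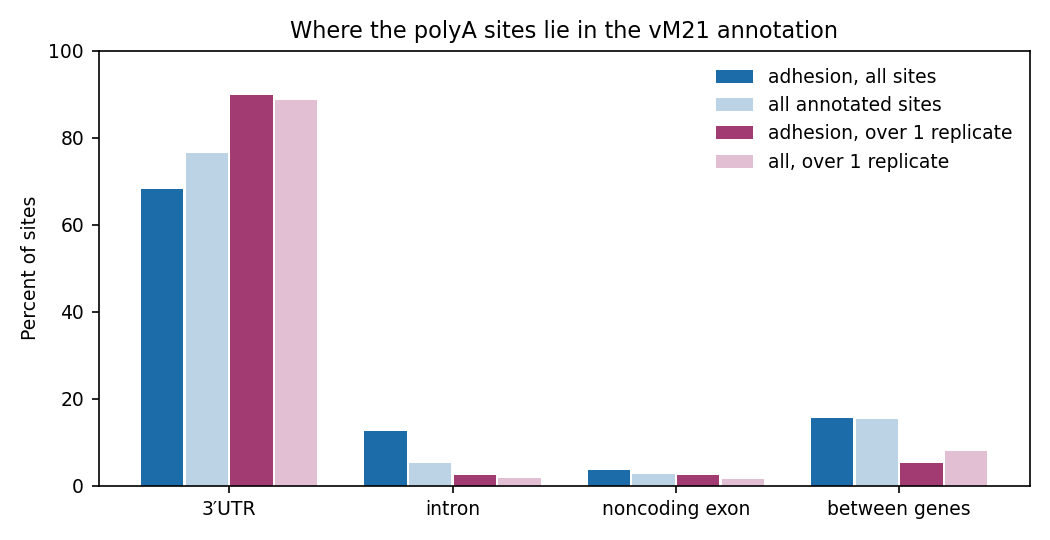
Percent of sites (y axis, from 0 to 100) in each vM21 class, for the 135 adhesion sites, all annotated sites, and those of each with tags in more than 1 replicate. Intron sites made up 12.6% of the adhesion sites and 2.56% of the recurrent ones, while 3′UTR sites made up 68.1% and 89.7%.

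Relative to the named gene, 109 adhesion sites (80.7% beside 76.5% of all sites) lay inside it. Of these, 41 lay within the last 100 bases (30.4% of adhesion sites beside 41.6% of all sites), at a median of 23 bases before the annotated end. A further 8 sites with 8 tags lay up to 10 kb past the end, and 17 sites with 24 tags lay farther out. These were 12.6% of adhesion sites beside 14.7% of all sites, and 6.42% of adhesion tags beside 13.7% of all tags. Of the 17 distant sites 8 lay over 1 Mb away, or 5.93% of adhesion sites beside 1.53% of all sites. The farthest, named Pcdh19, was 4794 kb past the end of that gene. How the names at such distances were given was not tested, and some of these sites lay inside other vM21 genes, such as the site named Slitrk5 above. For 4 genes with 4 tags no site lay inside the gene or within 10 kb past it, and without distant sites the adhesion tags came to 113 ± 50.5 per 10000.

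**Figure D4:**
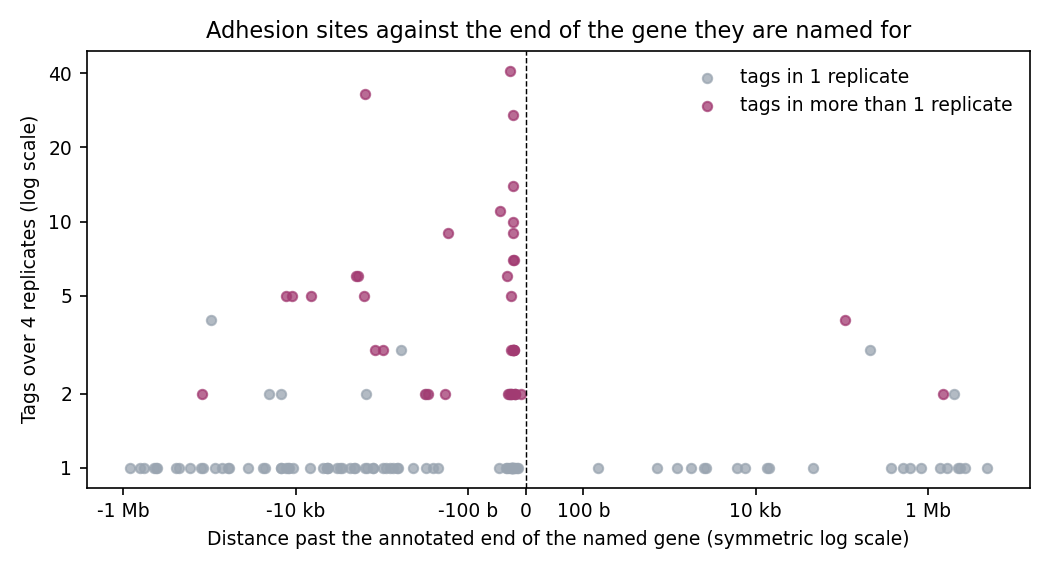
Distance of each adhesion site past the annotated end of the gene it is named for (x axis, symmetric log scale, negative values before that end) against its tags over 4 replicates (y axis, log scale). The site named Ctnnd1 has a negative value but lies upstream of that gene, and the other sites with negative values lie inside theirs. Sites with tags in more than 1 replicate (purple) gathered just before the end, and of the 17 sites more than 10 kb past it 2 were recurrent.

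A polyA signal was looked for within 50 bases on either side of each site, on the strand of the gene. AATAAA was the nearest signal at 76 adhesion sites and ATTAAA at 23, so that 99 of 135 (73.3%) had a signal beside 78.1% of all sites. The signal started a median of 1 base before the site, and the deposited positions thus lay near the signal rather than at the cleaved end. Within 50 bases upstream alone the share was 24.4% beside 30.3% of all sites.

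By tags, 80%, 86.0%, 57.0% and 61.1% of adhesion tags in replicates 1 to 4 lay at a site with a signal, beside 57.8%, 77.9%, 71.6% and 79.7% of all tags. Without the Bc1-like sites, none of which is an adhesion site, the shares of all tags were 86.0%, 88.0%, 73.5% and 81.4%. Without Cntnap2, whose site has no signal, the adhesion shares were 80.6%, 86%, 63.6% and 77.6%, below these values in every library. In the 100 bases upstream, TTTTAT (the core of a cytoplasmic polyadenylation element, searched on the gene strand) was found at 20% of adhesion sites beside 15.3% of all sites, and TGTANATA, the motif of Pumilio proteins searched in the same way, at 9.63% beside 5.60%. These matches describe letters in the reference and were not tested.

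The study asked which 3′UTR isoforms of a gene reach the dendrites, and 31 of the 79 adhesion genes had more than 1 site, but in 4 of them more than 1 site recurred. For Adgrl1 the proximal site had 5, 1, 0 and 0 tags and the distal site, 1962 bases downstream, had 2, 1, 1 and 1. For Cntn1 the proximal site had 1, 0, 4 and 1 tags and the distal site, 1840 bases downstream, had 2, 3, 2 and 4. Both windows of Cntn1 shown above hold a signal, ATTAAA for the proximal and AATAAA for the distal site, whereas of the Adgrl1 windows the distal one holds a signal. The ATTAAA starts 16 bases downstream of the proximal Cntn1 site, which itself lies just outside the window shown.

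Ctnnd2 had 2, 0, 1 and 0 tags at its proximal and 5, 1, 0 and 0 at its distal site, 951 bases apart. Ntm (neurotrimin, an IgLON) had 1, 0, 0 and 1 at both of its recurrent sites, 167 bases apart. Summed over these 4 genes the distal site held 10 of 19, 5 of 6, 3 of 8 and 6 of 8 tags, or 52.6%, 83.3%, 37.5% and 75% (62.1% ± 20.9, SD, n = 4). Neither site was thus preferred beyond the spread between replicates. None of these genes reached the 20 tags needed for the test of site usage, in which 13 of 50 names (26%) were called. At a minimum of 10 tags, where 10.5% of 105 names were called, Adgrl1 had an adjusted p of 0.875 and Cntn1 of 0.601 in Fisher's exact test with Benjamini-Hochberg adjustment.

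**Figure D5:**
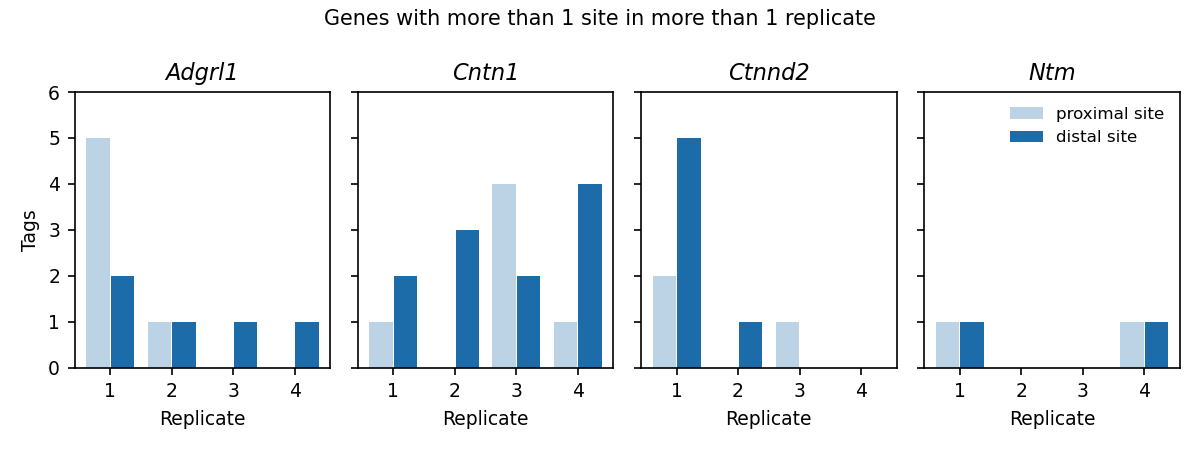
Tags (y axis, counts) at the proximal (light) and distal (dark) polyA site of the 4 adhesion genes with more than 1 recurrent site, for replicates 1 to 4 (x axis). No bar exceeds 5 tags, and the order of the 2 sites of Cntn1 differs between replicate 3 and the other libraries.

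Lists of neighbouring genes give the setting. Of 21 relatives of the adhesion families under other or older symbols (Celsr, Fat and the like) 3 had sites, with 7 tags, and Celsr2, Fat3 and Fat1 had 4, 2 and 1 of these. Of 46 further synaptic adhesion molecules 32 had sites, with 197 tags as 62, 30, 50 and 55 (64.6 ± 26.3 per 10000, SD, n = 4). Clstn1 (calsyntenin 1) with 27 tags, Sirpa with 21 and Thy1 with 20 led this list, and 2 of the 3 genes that could be tested differed between replicates.

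The intracellular partners that hold adhesion molecules at the synapse were 28 of 41 present, with 305 tags as 150, 72, 38 and 45, and 2 of 4 tested genes were called. Per 10000 tags they came to 93.7, 109, 63.9 and 73.8, so that they lay lower in replicates 3 and 4, where the adhesion tags lay higher. Dlg4 (PSD-95), the scaffold that binds neuroligins, had 45, 26, 11 and 17 tags. Shank3 had 39, 9, 0 and 2, and Shank1 had 13, 12, 1 and 2.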

How the data were processed

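The authors deposited tag counts, whole numbers that were not normalized, for 1-base polyA sites with a gene name. Per the labels, cutadapt and Novoalign were used and the build was mm10. No versions are given in the sources used here. Per the methods, sites were clusters called with the CTK package, and whether tags at repeats were placed uniquely is not given in the sources used here. Names in the table were used as deposited. Sites were placed on GRCm38 with GENCODE vM21 and RefSeq, a 3′UTR taking precedence over other exons and exons over introns.

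Levels are tags per 10000 tags of the library. An exact multinomial test compared a gene's tags with the library totals (chi-square above 150 tags), and Fisher's exact test compared tags at the leading site with those at the gene's other sites, each over all names with at least 20 tags, with Benjamini-Hochberg adjustment and a threshold of 0.05. Both are two-sided and were checked on simulated data. Python 3.11.15, scipy 1.17.1, pysam 0.24.0 and blastn 2.17.0 were used. Copies were matches of at least 80 bases at 90% identity to 101 bases around a site. The alternatives left out each replicate, used vM21 names, other tag minimums or totals without Bc1-like sites, and kept recurrent or nearby sites.

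The genes and lists were chosen with earlier results of these data known. Genes were named if present in all 4 replicates, with at least 10 tags, with more than 1 recurrent site or a recurrent intron site, among the 10 leading sites, or first in their family, and the first 3 of each list. Other names in the text were chosen after their values were seen. Nothing says whether mice were shared between replicates. An item of the table is not reported here.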

Additional observations from a re-analysis of the deposited data

Results flagged for a closer look

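Dixon's criterion at the 95% level was applied to 24 results over the 4 libraries, and 2 had a library far from the others, where chance gives about 1.2. The share of adhesion tags in a 3′UTR was 92.6% in replicate 4 and 80% to 81.5% in the other replicates, and without Cntnap2 it was 90.6% in replicate 4 and 77.9% to 81.4% in the others. Ephrins had 0 tags per 10000 in replicate 2 and 3.28 to 3.75 in the others, from 10 tags in all, of which 3 named Efna5 lay far past that gene. A count of 0 in replicate 2 allows up to 4.54 per 10000, so that this difference was not detectable at this depth.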

How the results depend on the processing

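Of 56 values of the main results under an alternative, 50 stayed within the spread between replicates or within 1.5 times the count, and 6 moved. Leaving out each replicate gave 22 to 31 recurrent adhesion sites, beside 39 with all libraries, and 0 to 2 genes called for a share that differed between replicates. It gave 2 called genes without replicate 1, 2 or 3, and 0 without replicate 4, where 1 gene could be tested. Asking for at least 2 tags per replicate left 13 recurrent sites, and asking for tags in all 4 replicates left 8. The share of adhesion tags in a 3′UTR was 94.2% at recurrent sites. The share of sites with a polyA signal was 24.4% when searched 50 bases upstream alone. Nearby sites only, and leaving out Cntnap2 or the endothelial Cdh5 and Adgrl4, were chosen after seeing the data, as were the shares of all tags without Bc1-like sites. With the former 3 the adhesion tags came to 113, 106 and 119 per 10000. All 64 values of single genes kept their direction and side of the threshold or stayed within the spread. No paired analysis was possible because there was only 1 group. Depth limits every comparison of single sites, since 85 of 135 adhesion sites had 1 tag.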

Other observations

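A small set of adhesion sites lay in sequence that occurs elsewhere in the genome. A copy of at least 80 bases at 90% identity was found for 4 sites with 6 tags, of the names Adgrl2, Cdh11, Cdh2 and Slitrk5. The site named Cdh11 that lies 2203 kb past that gene had 1186 such copies.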
